A study of Squalius alburnoides and Squalius pyrenaicus with 4 samples.

Results

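MicroRNA (miRNA) profiles of the triploid form PAA of the Squalius alburnoides complex were compared with those of the diploid form AA, so that a P genome was added to 2 A genomes. Squalius alburnoides is an Iberian freshwater fish of hybrid origin, and its forms are named by their genomes: P comes from S. pyrenaicus and A from the other ancestor, so PAA is a hybrid triploid and AA a non-hybrid diploid. The comparison used 2 of the 4 arrays of the series, 1 for each form, and all 218 probes of the chip that carry a zebrafish miRNA name. The other arrays held the diploid hybrid PA and the parental species PP (S. pyrenaicus), whose values are given beside those of PAA and AA where they help to read them.

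All fish were adult. For each form, total RNA of liver, muscle and brain was pooled, from about 3 individuals, and 2 µg was labelled with the dye Cy3 and hybridized to a multi-species miRNA oligonucleotide chip read in a single colour. PAA, PA and AA fish came from the same river, the Almargem, and PP fish from another place, Colares. The study describes AA fish as always male and PAA fish as mainly female, and no source used here gives the sex of the pooled fish. PAA was hybridized on another slide than AA, each in the upper position. PAA shared its slide with PA, and AA shared its slide with PP. With 1 array for each form no test was made, and what belongs to ploidy, to the P genome, to sex or to the slide cannot be told apart.

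miRNAs are short RNAs that guide Argonaute proteins to messenger RNAs, which are then translated less or degraded. A hairpin precursor yields a duplex of which a strand, the guide, is usually kept, while the other, the star strand (marked * in the names), is mostly lost. Members of a miRNA family share the bases near the 5′ end that choose the targets, and many miRNAs are strongly enriched in a tissue, such as miR-122 in vertebrate liver, miR-1 and miR-133 in muscle and miR-9 and miR-124 in brain.

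Each probe was printed in 4 spots. Detection on an array required that 2 or more of these spots reach 2 times their local background, and its level was the mean log2 signal of those spots after quantile normalization, which gives every array the same distribution of levels. Levels below are these normalized intensities, differences are PAA minus AA on the log2 scale, and their errors are standard errors over the spots of a probe, which measure the spread within an array and not between fish. Whether spots overlapped between arrays was judged only on the spots that entered these levels. Since affinity varies from probe to probe, a brighter probe does not mean a more abundant miRNA.

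Of the zebrafish probes, 168 were detected on PAA and 154 on AA. Their summed signal before normalization was 162967 on PAA and 152942 on AA, and the median SD between spots was 0.17 on PAA and 0.12 on AA. The 95th percentile of the spots without a probe (the BLANK level) lay at a normalized intensity of 106.9 on PAA and 241 on AA, so 167 detected probes were above it on PAA and 66 on AA. The level rested on 40 such spots on each array, so the brightest few of them set it. Before normalization it was a signal of 103 on PAA and 203 on AA. The median signal of these spots was 41.5 on PAA and 36 on AA. By the BLANK level, a low value on AA is less firm than the same value on PAA. The liver marker miR-192 was the brightest probe of both arrays. The muscle marker miR-1 read 1108 on PAA and 593 on AA, and the brain marker miR-9 4376 on PAA and 1816 on AA. Liver miR-122 lay just above the BLANK level of AA, with 245 on PAA and 270 on AA. The brain-defining miR-124 was detected on PAA only, at 193 from 2 spots, and its spots kept at the scan averaged a signal of 147 on PAA and 204 on AA before normalization.

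Most zebrafish probes differed less than 2-fold between the triploid and the diploid form. Both arrays detected 140 probes, 62 of them above the BLANK level on both. Of these, 123 (87.9%) lay within 2-fold, 9 were more than 2-fold higher on PAA (6.43% of the probes) and 8 more than 2-fold lower (5.71%), in all 17 probes (12.1%). By any size, 88 probes were higher on PAA (62.9%) and 51 lower (36.4%), with a median difference of 0.12 and an interquartile range of −0.22 to 0.42. Across the probes, which are not independent replicates, the levels of the arrays correlated with a Pearson coefficient of 0.89 and a Spearman coefficient of 0.79.

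The excess of higher probes depended on how the arrays were brought to a common scale. Without scaling, 109 probes were higher on PAA and 31 lower, with a median of 0.29. The median was 0.20 after scaling to the total zebrafish signal, −0.06 after median scaling and −0.19 after scaling on control spots labelled Homo. Any scaling that multiplies an array by a factor leaves the differences relative to the median probe unchanged. Relative to that median, 7 probes were more than 2-fold higher on PAA and 9 more than 2-fold lower, and these included 4 of the 9 and 8 of the 8 probes counted above.

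**Figure D1:**
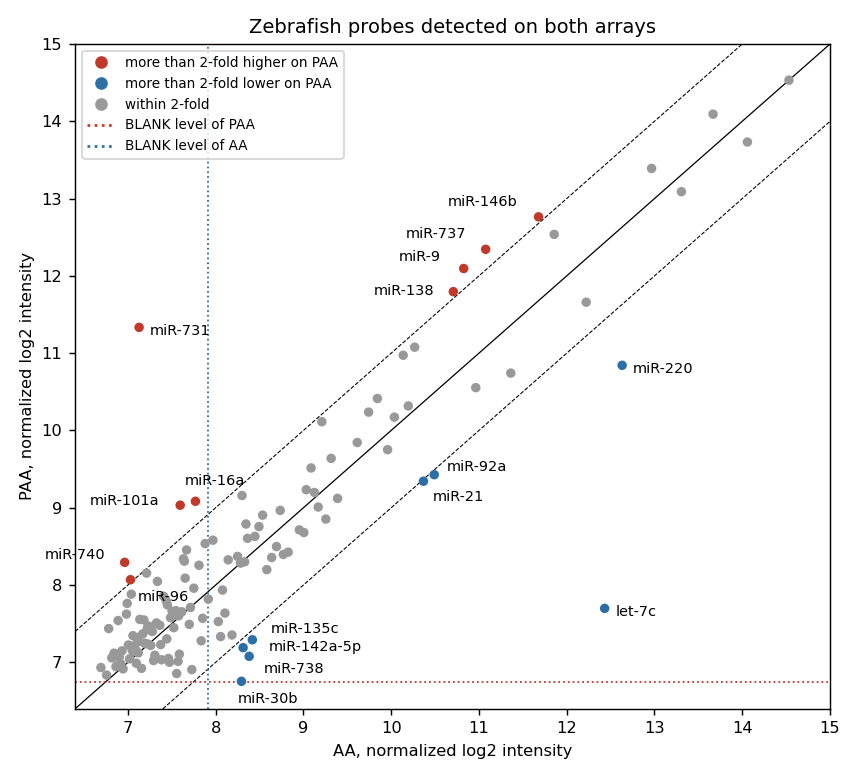
Normalized log2 intensity on PAA (vertical axis) against AA (horizontal axis) for the 140 zebrafish probes detected on both arrays, with the solid line at equality, dashed lines at 2-fold and dotted lines at the BLANK level of each array. Most probes follow the line of equality, while miR-731 stands far above it at 2582 on PAA and 140 on AA, and let-7c far below it at 208 on PAA and 5527 on AA.

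Probes named only after invertebrate miRNAs gave a comparison measured on the same arrays. Of 183 such probes, 104 were detected on both arrays, and the share beyond 2-fold was 12.1% among the zebrafish and 8.65% among these invertebrate probes. Relative to the median probe without normalization the shares were 11.4% of the zebrafish and 9.62% of the invertebrate probes. The interquartile range was −0.22 to 0.41 for zebrafish and −0.21 to 0.34 for invertebrate probes. The spread of the zebrafish probes as a whole was thus close to that of probes with no vertebrate name. This class was set by species name alone. Some of its probes carry a number that zebrafish probes carry too, such as cel-miR-124, dme-miR-10, dme-miR-219 and dme-miR-34 (−1.18). Whether such probes bind fish miRNAs was not tested. Large differences occurred among the invertebrate probes too: the Caenorhabditis elegans probe cel-miR-37 had a signal before normalization of 6275 on PAA and 426 on AA, and the cel-miR-74 probe one of 513 on PAA and 3022 on AA. Sizes of this kind are the background against which single probes below are to be read.

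**Figure D2:**
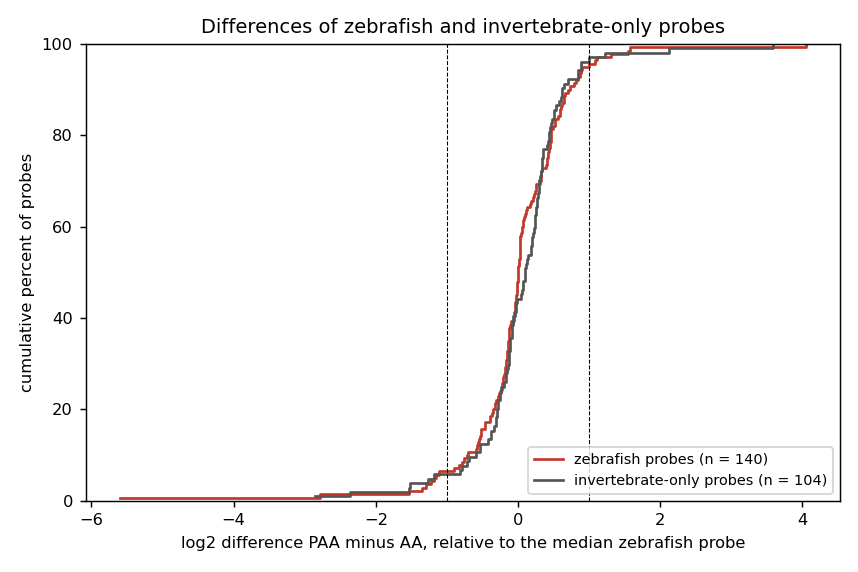
Cumulative percent of probes (vertical axis) against the log2 difference PAA minus AA before normalization, relative to the median zebrafish probe (horizontal axis), for 140 zebrafish and 104 invertebrate-only probes, with dashed lines at 2-fold. The curves run close together, and both have long tails, which reach −5.60 for let-7c and 4.05 for miR-731 among the zebrafish probes.

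Highest on the triploid relative to the diploid form stood miR-731, which in teleosts is encoded beside miR-462 and is raised in rainbow trout infected with viruses. Its 4 spots had signals of 2642, 2755, 2465 and 2448 on PAA, against 127, 119, 131 and 130 on AA. The spots of each array lay close together and far from those of the other. After normalization miR-731 read 2582 on PAA and 140 on AA, a difference of 4.21 ± 0.05. As AA lay under its BLANK level, at least 10.7-fold holds against that level. On the other arrays it read 5838 on PA and 484 on PP, the latter under the BLANK level of PP (577). For miR-731 both arrays of the slide of PAA were thus above both of the slide of AA. Its neighbour miR-462 read 173 on PAA and 110 on AA, a difference of 0.66 ± 0.35 without overlap of the spots, with AA again under its BLANK level.

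A group of 4 dim probes followed, all with AA under the BLANK level. The probe of miR-101a, which in human cells represses the histone methyltransferase gene EZH2, read 524 on PAA and 194 on AA, a difference of 1.44 ± 0.06 and at least 2.18-fold against the BLANK level. That of miR-16a, whose family restrains the cell cycle in human cells, read 543 on PAA and 218 on AA (1.31 ± 0.06, at least 2.25-fold). The spots of both miRNAs were tight on either array and did not overlap. The teleost miR-740 read 314 on PAA from 3 spots and 125 on AA from 2 spots (1.33 ± 0.11, at least 1.30-fold), and once set-aside spots were included its difference was 0.09. The probe of miR-96, a miRNA of sensory hair cells in which seed mutations cause deafness in mice and humans, read 269 on PAA and 131 on AA (1.04 ± 0.11, at least 1.12-fold), and relative to the median probe without normalization it was within 2-fold, at 0.90. Every passing spot of miR-740 and miR-96 on PAA lay above every passing spot on AA. The set-aside spots of miR-740 had signals of 116 on PAA and of 125 and 1469 on AA.

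The other 4 probes more than 2-fold higher on PAA were bright on both arrays. Neural miR-9, a regulator of neural progenitors in zebrafish and mouse, had the values given above (1.27 ± 0.14). The brain-enriched miR-138, which restrains dendritic spine growth in rat neurons, read 3556 on PAA and 1673 on AA (1.09 ± 0.10). The innate immune regulator miR-146b, of the family that represses TRAF6 and IRAK1 in human cells, read 6956 on PAA and 3279 on AA (1.09 ± 0.03). The teleost miR-737 read 5199 on PAA and 2160 on AA (1.27 ± 0.11). The spots of these 4 probes did not overlap between the arrays either. Relative to the median probe without normalization all 4 were within 2-fold, with 0.65 for miR-9, 0.61 for miR-138, 0.52 for miR-737 and 0.32 for miR-146b. With the set-aside spots miR-737 differed by 0.11. Just inside the 2-fold limit stood miR-10d, of a family encoded in the Hox clusters, at 0.94 and muscle miR-1 at 0.90.

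Lowest on the triploid relative to the diploid form stood let-7c, of the family that times development in Caenorhabditis elegans and represses RAS in human cells. Its 4 spots had signals of 243, 192, 210 and 183 on PAA, against 7657, 7882, 8664 and 8410 on AA. The median signal of the spots around them was 240 to 520 on PAA and 180 to 220 on AA, and the brightest of them on AA had a signal of 3486. The normalized intensity was 208 on PAA and 5527 on AA, a difference of −4.73 ± 0.10 or 26.6-fold. It held 0.126% of the zebrafish signal on PAA and 5.32% on AA. Both values lay above the BLANK level. The level was low on PA as well (238) and high on PP (4841), so the arrays fell apart by slide.

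The second probe lower on PAA was miR-220, with 1837 on PAA and 6345 on AA (−1.79 ± 0.45). The spots used had signals of 1338, 3241 and 1484 on PAA, against 10240, 13316 and 8424 on AA, and the 4th spot of each array had been set aside. The spots did not overlap, although those of PAA were spread. The other arrays gave 3435 on PA and 10220 on PP.

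The probes of miR-92a, miR-21 and miR-135c were moderately lower on PAA. The probe of miR-92a, of the miR-17-92 type clusters that promote proliferation in mouse and human cells, read 689 on PAA and 1439 on AA (−1.06 ± 0.11). That of miR-21, often raised in injured and tumour tissue of mammals, read 650 on PAA and 1322 on AA (−1.02 ± 0.12). Both had tight spots without overlap and were above the BLANK level on either array. For these 2 miRNAs PAA lay between AA and PP, which read 127 for miR-92a and 367 for miR-21. Both PP values were under the BLANK level of that array (577). The neural miR-135c read 157 on PAA and 342 on AA (−1.13 ± 0.13), also without overlap.

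The remaining 3 probes lower on PAA rested on discordant spots. The miR-30b probe read 108 on PAA from 2 spots and 314 on AA (−1.54 ± 0.69), where its spots had signals of 127, 174, 1004 and 179. The probe of miR-142a-5p, a miRNA of blood cells in mouse and zebrafish, read 146 on PAA and 318 on AA (−1.12 ± 0.85), with AA spot signals of 121, 123, 1437 and 197. For miR-738 the values were 135 on PAA and 334 on AA (−1.30 ± 0.67), with AA spot signals of 112, 348 and 474. In miR-142a-5p and miR-738 the spots of the arrays overlapped, and the miR-142a-5p difference was −0.00 in the copies of the first subarray rows and −2.47 in those of the last. Just inside the limit stood miR-103 at −0.83.

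**Figure D3:**
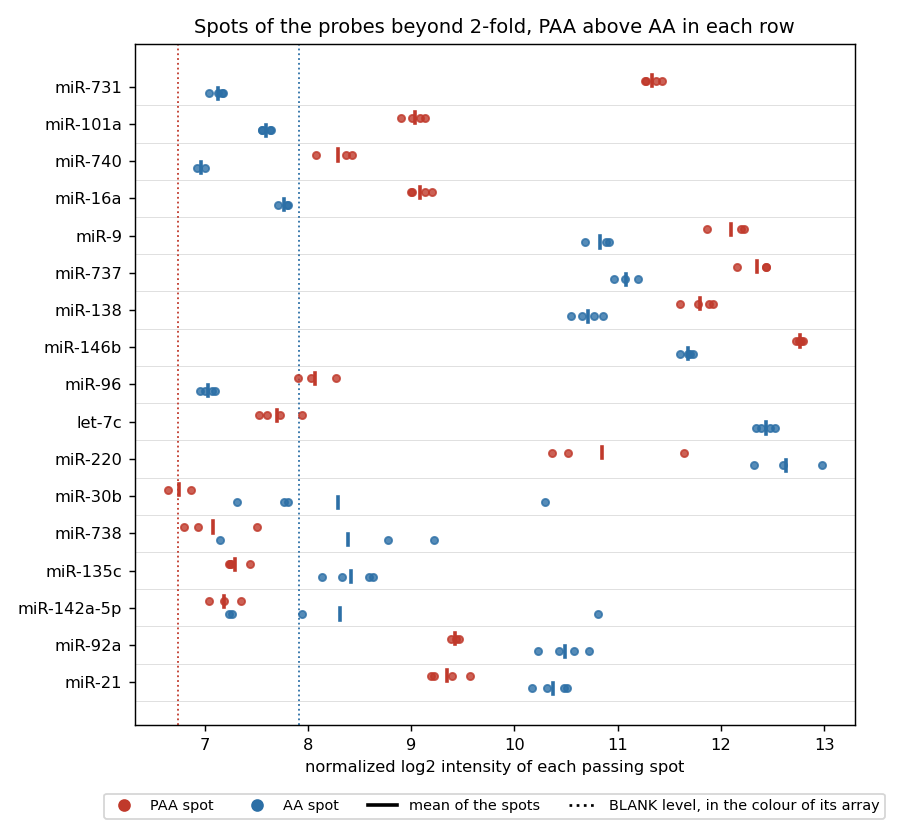
Normalized log2 intensity (horizontal axis) of each spot that passed for the 17 probes beyond 2-fold, with PAA spots above AA spots in each row, ticks at the means and dotted lines at the BLANK levels. The spots of 15 probes do not overlap between the arrays, while miR-738 and miR-142a-5p overlap and miR-30b, miR-738 and miR-142a-5p have AA spots far apart.

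Spots that did not overlap between the arrays were common. They were found for 41 probes higher on PAA (29.3%) and 28 lower (20%), in all 69 of 140 (49.3%), and for 15 of the 17 beyond 2-fold. Both arrays were above their BLANK levels for 12 of the 17, namely 4 of the higher and all 8 of the lower ones. As the BLANK level was 106.9 on PAA and 241 on AA, probes lower on PAA meet this rule more easily. Among the 62 probes above the BLANK levels these 12 are 19.4%, a larger share than the 12.1% over all 140. By brightness, 0 of the 47 dimmest probes differed more than 2-fold, against 8 of the 46 in the middle and 9 of the 47 brightest. The lowest detected level was 103.5 on either array, which left most of the dimmest probes no room for a 2-fold difference. The count of 0 is therefore largely set by the detection rule. The copies of a probe in the first and the last subarray rows gave separate readings of its difference. Over 123 probes these correlated with a Pearson coefficient of 0.81, which was 0.65 without let-7c and miR-731, and a Spearman coefficient of 0.64.

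The values on PA and PP show how far these differences followed the slide. The BLANK level of PP was high, at 577, with 31 of its 156 detected probes above it. Of 114 probes detected on all 4 arrays, 48 (42.1%) had both PAA and PA above, or both below, both AA and PP. Of the 12 probes beyond 2-fold that were detected on all arrays this held for 8, namely miR-731, miR-101a, miR-740, miR-9, miR-146b, miR-96, let-7c and miR-220. Among them miR-731, miR-101a, miR-740 and miR-96 were under the BLANK level on both AA and PP. These 12 had been chosen for a large difference between PAA and AA, so a larger share is built into the choice. PAA lay between AA and PP for 41 of the 114 probes (36.0%), and for 2 of the 12, miR-92a and miR-21. Values without any relation would also fall into either order for part of the probes, a share that was not computed. In the split of PAA and PA from AA and PP, the slide cannot be told apart from hybrid state. PP also differed from the other forms in species and in place of capture. Unlike the other bright probes higher on PAA, miR-138 read lower on PA (1240) than on AA (1673) and PP (1701).

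**Figure D4:**
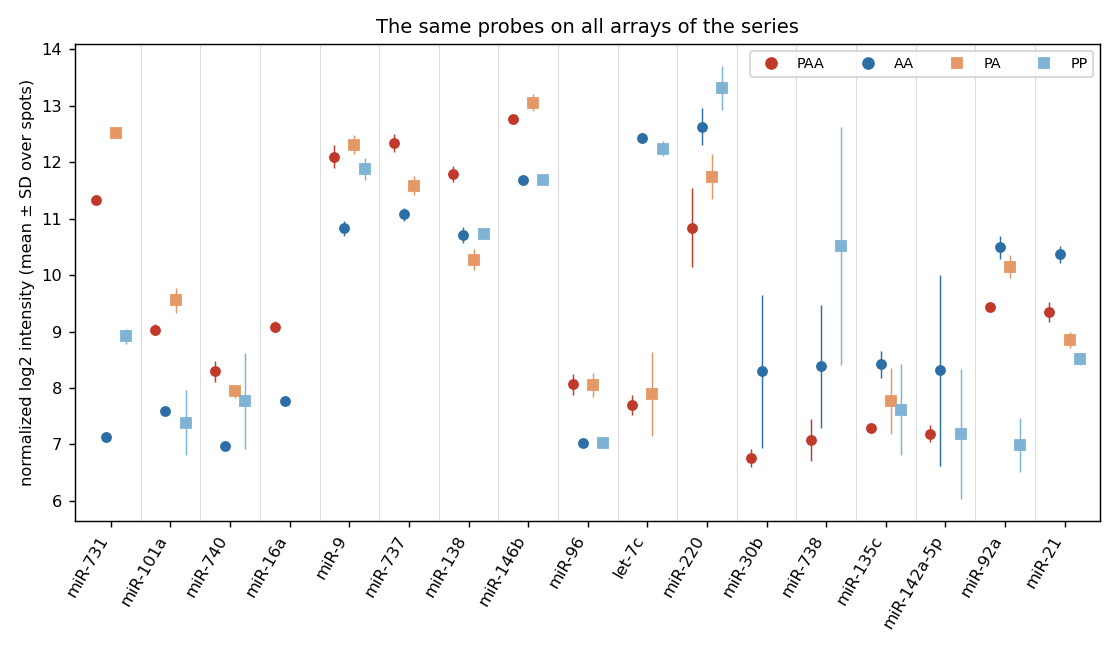
Normalized log2 intensity (vertical axis, mean ± SD over spots) of the 17 probes beyond 2-fold on PAA and AA (circles) and on PA and PP (squares), in the order PAA, AA, PA, PP; a missing symbol means that the probe was not detected or not measured there. PA sits with PAA and PP with AA for let-7c and miR-731, whereas for miR-92a and miR-21 PAA lies between AA and PP. The PP values of miR-731, miR-92a and miR-21 are under the BLANK level of PP.

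Further miRNAs were detected on 1 of the arrays only. With AA below the detection limit, 25 probes were detected on PAA (11.5% of the 218), and with PAA below it 14 were detected on AA (6.42%). Another 3 detected on PAA, miR-20b, miR-301a and miR-460-5p, had too few spots kept on AA and were not measured there. For 36 probes neither array reached the limit. Most of these signals were near the limit. For 11 probes the bright array exceeded the limit, or the dim array's own signal if that was higher, at least 2-fold. The value of the bright array is the mean of its passing spots alone.

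On PAA the clearest of them was miR-182, which is encoded beside miR-96 and miR-183, with 1041 from 4 spots. On the other arrays it read 951 on PA and was not detected on PP, so PA again went with PAA and PP with AA. Its spots averaged a signal of 1190 on PAA and 50.8 on AA before normalization, which made it at least 10.1-fold higher, and at least 4.32-fold when set against the level of the BLANK spots on AA. By their passing spots, the other PAA probes were at least 2.69-fold (miR-193b), 2.33-fold (muscle miR-133c), 2.22-fold (miR-223, of mammalian neutrophils), 2.12-fold (miR-723*) and 2.04-fold (miR-142b-5p) higher. Over all kept spots the PAA signal before normalization averaged only 162.5 for miR-193b and 227 for miR-133c. For miR-223, miR-723* and miR-142b-5p it averaged 146, 146.5 and 124.5. Of these 5, miR-193b exceeded the BLANK level of AA by at least 1.15-fold, while the others were at that level or under it. On PAA miR-133c rested on 3 spots with an SD of 0.62 log2, and the others on 2 spots each. The spots of miR-193b lay apart, at 7.55 and 8.69 log2. The SD between spots was 0.76 for miR-223, 0.74 for miR-723* and 0.31 for miR-142b-5p.

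On AA the brightest was miR-150, a regulator of lymphocyte development in mice, with 720, at least 6.96-fold above the limit on PAA. It rested on 2 spots far apart, at 8.19 and 10.79 log2. The muscle star strand miR-133b* (474, at least 4.57-fold) likewise rested on spots at 7.89 and 9.88. The probes of miR-204, a miRNA of the lens and retinal pigment epithelium, and miR-130a followed with 245 and 221 (at least 2.37-fold and 2.13-fold). Over all kept spots the AA signal before normalization averaged 466 for miR-150, 257 for miR-133b* and 141.5 for miR-130a. The gonadal miR-202 read 390 on AA (at least 2.07-fold) from 2 spots, but all its kept spots averaged a signal of 185 on PAA and 168 on AA before normalization, so its direction is not firm. Its star strand was detected on neither array.

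The families are described by how many members lay above the all-probe median of 0.12, since the sign of a small difference turned with the scaling. Lists called families here were drawn by miRNA number. Some join several numbers, such as miR-462 with miR-731, miR-23/27/24, miR-193 with miR-365 or miR-722 to miR-740. Members of these need not share the bases that choose the targets. Among the families with more than 1 measured member, a pair of small clusters stood highest. Of the cluster of miR-462 and miR-731 both members were above it (median 2.43), as were both measured members of the cluster of miR-96, miR-182 and miR-183 (median 0.85), with miR-183 at 186 on PAA and 119 on AA (0.65 ± 0.43, with overlapping spots). AA was under its BLANK level for all 4 probes. All 4 measured members of the miR-130, miR-301 and miR-454 family, whose guides share a seed, were above it as well (median 0.24), from 0.18 for miR-454a to 0.86 ± 0.16 for miR-454b, which read 571 on PAA and 316 on AA. miR-454b was the only 1 of these 4 whose spots did not overlap, miR-130b had an error of 1.77, and miR-130a, of the same family, was detected on AA only. These 3 lists kept their side of the median under every scaling tried. The miR-130 family turned to −0.06 relative to the median without the filter on dim spots and to −0.02 in the copies of the last subarray rows.

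Of the 10 probes of the let-7 family, 6 were measured, 4 of them above the median and 2, let-7c and let-7g, below it. let-7e read 2162 on PAA and 1233 on AA (0.81 ± 0.20), and let-7f read 443 on PAA and 325 on AA from 2 spots each (0.44 ± 0.10), both without overlap. let-7a (0.36 ± 0.42), let-7b (0.20 ± 0.18) and let-7g (−0.00 ± 0.04) had overlapping spots. The summed intensity of the family was 3846 on PAA and 7993 on AA, a sum carried by let-7c. Relative to the all-probe median the list turned to −0.09 in the copies of the last subarray rows.

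Other families were split too. Of the miR-15, miR-16 and miR-457 family, 3 of 6 were above the median, with miR-16a, miR-457b (0.79 ± 0.11) and miR-15c (0.37 ± 0.05) all without overlap, and the list lay below the all-probe median in 4 of 15 settings, to −0.16 in the deposited value table. Of miR-25, miR-92 and miR-363, relatives that share a seed, miR-92a was lower while miR-92b read 2011 on PAA and 1126 on AA (0.84 ± 0.21), so sister probes lay on opposite sides. Of miR-30, miR-30c (0.61 ± 0.10) and miR-30e (0.49 ± 0.11) were above and miR-30a and miR-30b below. Of miR-10, miR-10d and miR-10b (0.16) were above and miR-10a (−0.47) and miR-10c (−0.11) below.

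Below the all-probe median lay 4 of the 6 measured members of miR-23/27/24 (median −0.19), which are known from blood vessels in mice. miR-24 read 294 on PAA and 384 on AA (−0.38 ± 0.05), without overlap, while miR-23a, at 17469 on PAA and 13009 on AA, was above (0.43 ± 0.26, with overlap). The list turned to 0.13 relative to the median with the set-aside spots and to 0.07 with all 4 spots required. Both members of miR-218 (median −0.42) were below it, as were both measured members of miR-193 with miR-365 (−0.46) and of miR-103 with miR-107 (−0.38), a list that turned in 2 of 15 settings, to 0.48 relative to the median without the filter on dim spots. Of 18 teleost probes numbered miR-722 to miR-740 without miR-731, 11 were measured, 5 above and 6 below the median, with 2 more than 2-fold higher (miR-740, miR-737) and 1 lower (miR-738). The lists of miR-17 and its relatives, of miR-181 and of miR-133 changed side with the scaling, and no member of the miR-148 and miR-152 list was detected.

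**Figure D5:**
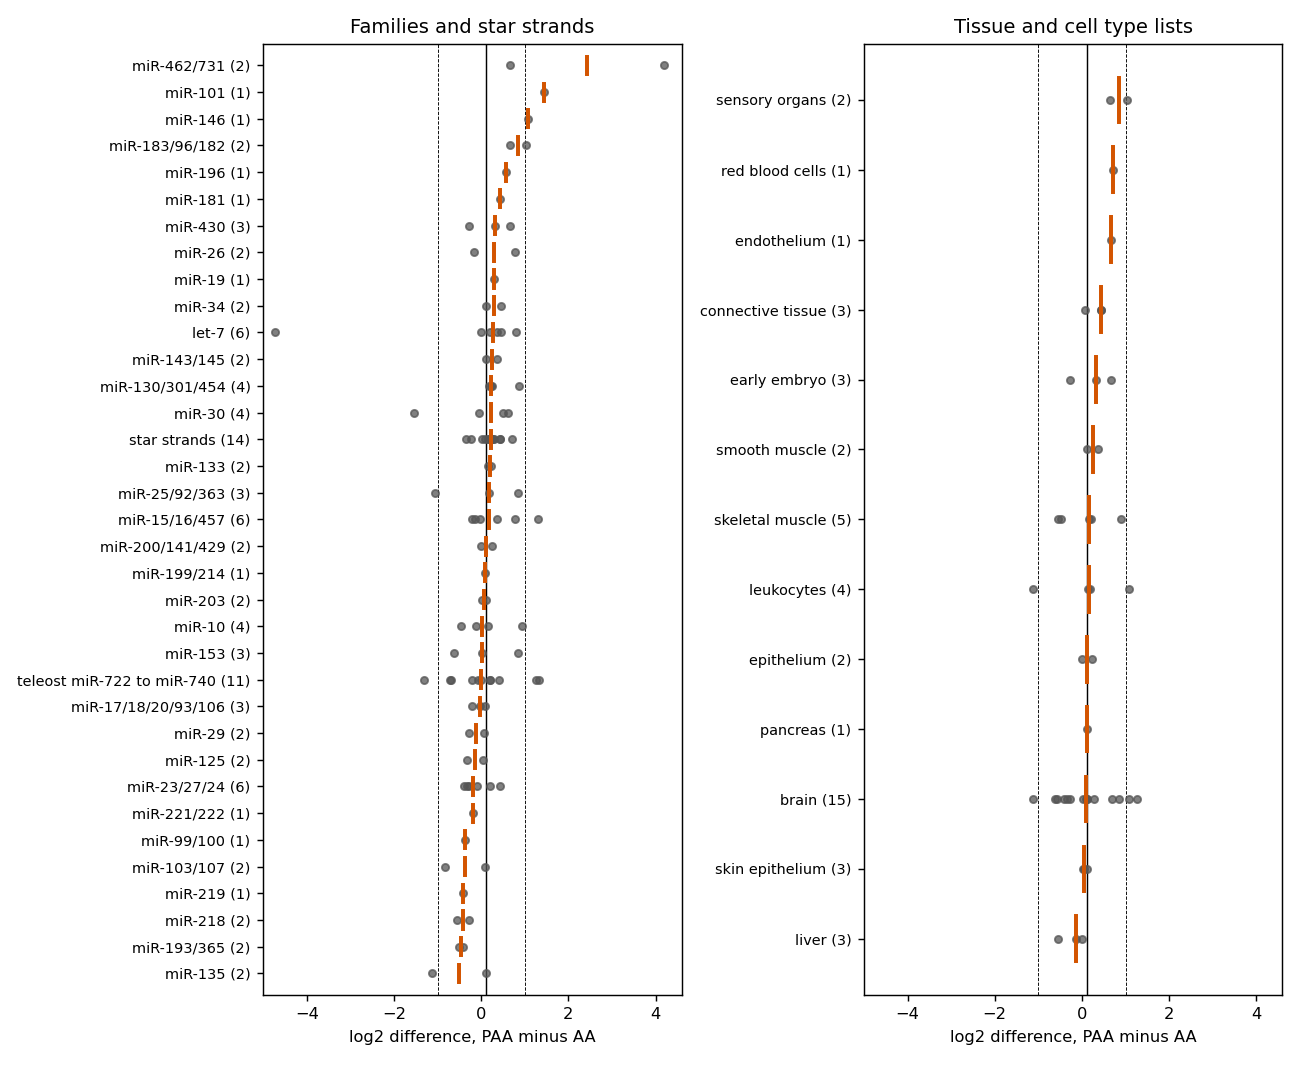
Log2 difference PAA minus AA (horizontal axis) of each measured member (grey points) in the family and star strand lists (left) and the tissue and cell type lists (right), with orange ticks at the list medians, the number measured in brackets, the solid line at the all-probe median of 0.12 and dashed lines at 2-fold. Most list medians lie near the solid line, and the pair of miR-462 and miR-731 (2.43) stands farthest above it.

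Of the 26 star strand probes, 14 were measured on both arrays, and 10 of them lay above the all-probe median (9 without normalization), with a median of 0.22. A further 6 were detected on PAA only and 1, miR-133b*, on AA only, against 11.5% and 6.42% of all 218 probes. The largest was miR-17a*, which read 265 on PAA and 162 on AA (0.71 ± 0.14), while its guide miR-17a did not differ beyond the spots (−0.03 ± 0.05). The strands of the miR-9 precursor parted: miR-9* was lower on PAA (−0.35 ± 0.10) and miR-9 higher. The strands miR-10a* (0.26 ± 0.07) and miR-10d* (−0.23 ± 0.32, with overlap) were each on the other side of 0 from their guides. The guide miR-10a (−0.47) had an error of 0.36. The list turned to −0.01 relative to the median with the set-aside spots and to −0.06 in the copies of the first subarray rows, and 10 of its 14 probes had at least 1 array under the BLANK level.

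By tissue, the lists of the pooled organs showed no common direction. In such pools fewer cells of a type and less RNA per cell cannot be told apart. Of the liver list, miR-122 (−0.14 ± 0.13) and miR-194b (129 on PAA, 190 on AA, −0.56 ± 0.27) were below the median, and miR-192 is set to 0 by the normalization as the brightest probe of each array. Of the 6 muscle probes, 5 were measured, 3 above and 2 below the all-probe median (1 above and 4 below without normalization). Higher on PAA was miR-1 (0.90 ± 0.09), and miR-206 (155 on PAA, 229 on AA, −0.56 ± 0.64, with overlap) and miR-499 (199 on PAA, 276 on AA, −0.47 ± 0.03, without overlap) were lower. The spots of miR-133a (0.16 ± 0.25) and miR-133b (0.22 ± 0.31) overlapped, and miR-133c was detected on PAA only. The median of this list changed side with the scaling.

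The brain list held 19 probes, 15 of them measured, 6 above and 9 below the all-probe median, with a list median of 0.10. Its members went both ways well beyond their spots. Besides miR-9 and miR-138, miR-132, which follows neuronal activity in rodents, read 5943 on PAA and 3710 on AA (0.68 ± 0.05), though relative to the median probe without normalization it differed by 0.01. Lower on PAA were miR-135c, miR-153c (1713 on PAA, 2634 on AA, −0.62 ± 0.09) and miR-219 (1504 on PAA, 1998 on AA, −0.41 ± 0.08), a miRNA of myelinating cells in mice. The spots of these did not overlap. The motor neuron miR-218a read 3236 on PAA and 4778 on AA (−0.56 ± 0.35), with overlap.

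Markers of other cell types were few and mostly dim. The red blood cell miR-451 read 324 on PAA and 199 on AA (0.71 ± 0.05), and the endothelial miR-126 read 317 on PAA and 200 on AA (0.67 ± 0.08). Both had AA under the BLANK level and spots without overlap, while miR-144, the cluster partner of miR-451, was detected on neither array and miR-126* on PAA only. Of 8 leukocyte probes, 4 were measured, and miR-146b alone had spots without overlap, higher on PAA. The spots of miR-142a-5p, miR-155 (1155 on PAA, 1051 on AA) and miR-142a-3p overlapped. A further 3 were detected on PAA only, and miR-150 on AA only from discordant spots. Of 5 connective tissue probes, 3 were measured, and miR-199* read 732 on PAA and 544 on AA (0.43 ± 0.07). The spots of miR-140* (0.44 ± 0.48) and miR-214 (0.08 ± 0.20) overlapped. All 3 skin epithelium probes lay below the all-probe median. Of 5 epithelium probes, 2 were measured, 1 above and 1 below that median, and miR-200b and miR-200c were detected on AA only. Of 4 pancreas probes, 1 was measured, miR-375 at 0.11, and miR-216a was detected on AA only. The part of blood and other cells in the levels of the pooled organs was not tested.

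Probes for the same miRNA number of other vertebrates gave a second reading for some members. Of 97 such pairs on the chip, 38 were measured on both arrays for both probes, and across them the differences correlated with a Pearson coefficient of 0.09 and a Spearman coefficient of −0.05, and 19 of 38 lay on the same side of the median. The human miR-96 probe, with 973 on PAA and 270 on AA (1.85 ± 0.12), was on the side of the zebrafish one. The mouse miR-9 probe, with 202 on PAA and 177 on AA (0.19 ± 0.17), and the human miR-146b probe (0.36 ± 2.09) had differences near or under their errors. The human miR-220 probe gave a value on PAA only, at 221, whereas the zebrafish miR-220 probe was lower on PAA than on AA. For miR-138, miR-21 and miR-92a, the mouse miR-138, human miR-21 and human miR-92 probes gave no value on either array. The mouse miR-200b probe read 21276 on PAA and 2611 on AA (3.03 ± 0.29), while the zebrafish miR-200b probe was detected on AA only, at 186. How far these probes differ in sequence was not analysed here.

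The 5 brightest probes were miR-192, miR-27c, miR-23a, miR-461 and miR-181a, and their differences ran between −0.33 for miR-27c and 0.43 for miR-23a. miR-461 read 8717 on PAA and 10134 on AA (−0.22 ± 0.04), and was the only one of these 5 whose spots did not overlap. These values moved with the processing: over the alternatives the difference ran between −0.62 and 0.95 for miR-181a, between −0.65 and 0.65 for miR-27c and between −0.16 and 0.89 for miR-192. Of the 50 brightest, the smallest differences besides the fixed miR-192 were those of miR-17a (315 on PAA, 322 on AA), miR-460-3p (587 on PAA, 559 on AA), miR-34c, a target of p53 in mice (1276 on PAA, 1173 on AA), and miR-155. All 4 had overlapping spots on PAA and AA, and miR-17a ran between −0.48 and 0.47 over the alternatives.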

How the data were processed

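Per the file headers, the scanner files deposited by the authors give a foreground and a local background intensity for each of 5040 spots in 24 subarrays, without background subtraction. A further column of 1 or 0 (score 1 read as a spot kept) in the deposited files marked 7.68% of zebrafish spots on PAA and 11.1% on AA as set aside, although no source used here explains that column. The authors' deposited value table, an intensity per probe on a linear scale with 212 of its 241 probes from zebrafish, served as an alternative. Its values equalled the geometric mean of the foreground of kept spots times a factor for each array, 1 for PAA and 1.18 for AA, within 0.1% for 99.5% and 99.0% of probes, so no background had been subtracted in it. How the factors were chosen is not known.

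Background was subtracted per spot. Kept spots with foreground at least 2 times background passed, at least 2 of 4 were required, and log2 means were quantile-normalized over the zebrafish probes of the 4 arrays. Scaling on Homo spots used the 12 that passed on all arrays. Where only 1 array detected a probe, a lower bound was the bright value (passing spots alone) divided by the dim probe's own signal. The lowest signal detected was the divisor if that was higher. Named miRNAs were those beyond 2-fold, those with a bound of at least 2-fold, the 5 brightest, the 5 with the smallest difference among the 50 brightest, and examples from 52 lists. The members and lists were chosen with earlier results of these data known. The functions were tested on simulated data. No genome coordinates or sequences were used. Python 3.11.15 with numpy 2.4.6, pandas 2.3.3 and matplotlib 3.10.9, and R 4.3.3 with limma 3.58.1 (normexp, offset 50) were used. The number of arrays, 1 for each form, limits the precision.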

Additional observations from a re-analysis of the deposited data

How the results depend on the processing

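Differences, counts beyond 2-fold and list medians were recomputed under 13 alternatives and 2 more that were chosen after seeing the data (the copies in the first or in the last subarray rows alone), where a value could be had. The counts of probes detected on 1 array were recomputed under 5 of these only (normexp, set-aside spots, all 4 spots required and both sets of subarray rows). Of the differences of the 17 probes beyond 2-fold, none turned its sign under the alternatives that gave a value. These 17 had been chosen for a large difference on the same arrays, so keeping the sign is largely built into the choice. The all-probe median of 0.12 was −0.00202 without the filter on dim spots, −0.065 with median scaling, −0.19 with Homo scaling, 0.29 without scaling, −0.011 in the deposited value table, −0.015 above the BLANK level on both arrays and 0.00460 in the last subarray rows. Some alternatives also changed the number of probes compared, which was 140 in the main setting, so the counts have different totals. The 9 probes more than 2-fold higher on PAA became 17 of 215 without the filter, 14 of 155 with set-aside spots and 3 of 58 with all 4 spots required. Of 140 probes, 4 were higher with Homo scaling, 15 without scaling and 5 with quantile normalization over all vertebrate probes. The count was 5 of 210 in the value table and 4 of 62 above the BLANK level. The 8 probes lower on PAA became 17 of 215 without the filter, 15 of 155 with set-aside spots and 2 of 58 with all 4 spots required. Of 140 probes, 3 were lower with normexp and 4 without scaling. In the last subarray rows 13 of 139 were lower. The 25 probes detected on PAA only became 15 in the last subarray rows, where 1 passing copy of 2 sufficed. Fewer probes were compared with all 4 spots required and above the BLANK level. More were compared without the filter, with set-aside spots and in the value table. What else moved the counts was not tested.

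The ranges over the alternatives were 3.38 to 4.35 for miR-731, −5.79 to −4.26 for let-7c, 0.13 to 1.20 for miR-146b, 0.11 to 1.29 for miR-737, 0.09 to 1.60 for miR-740 and −2.47 to −0.00 for miR-142a-5p. No paired analysis was possible because each form had 1 array and no result comes from a test. At this number of arrays the spread between fish is unknown, and on AA 66 of 154 detected probes were above the BLANK level.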
